A study of Rattus norvegicus with 6 samples.

Results

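The enzymes described here are the rat aldo-keto reductases (Akr), aldehyde dehydrogenases (Aldh) and carbonyl reductases (Cbr). They were taken by name, as every row with a symbol that starts with Akr, Aldh or Cbr and a digit, which gave 34 of the 18237 rows: 14 Akr, 17 Aldh and 3 Cbr. The counts come from RNA-seq of cultured rat cells labelled NRVM, which commonly stands for neonatal rat ventricular myocytes, although a growth note traces them to the embryonic heart. The control group (siNT, 3 libraries) was treated with a control siRNA and the other group (siMt2, 3 libraries) with one directed at Mt2, a gene of the metal-binding metallothioneins, and no strain, age or time after transfection is given in the labels. Both groups share a serum-containing medium, and the shared extraction note also names dexamethasone, isobutylmethylxanthine and insulin without saying whether these cells received them. Nothing says that the libraries of a group were separate cultures, so the spread behind each p-value may be technical.

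The 3 families act on the same reactive group, the carbonyl of aldehydes and ketones. Aldo-keto reductases and carbonyl reductases use NADPH to turn it into an alcohol, whereas aldehyde dehydrogenases use NAD or NADP to oxidise an aldehyde to a carboxylic acid. Sugars, steroids, retinal, amino acid intermediates and the aldehydes left by lipid peroxidation are their known substrates, and in heart muscle Aldh2 is known for removing lipid aldehydes formed in ischaemia and reperfusion. Several members, Akr1b8 among them, are known targets of NRF2, the transcription factor that switches on antioxidant genes.

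Total counts lay between 2859759 and 6817777 per library, and a library with a count of 0 allows up to 3 counts by counting error alone, or 0.440 to 1.05 CPM (counts scaled to a common library total). The labels separated on the first principal component (69% of variance), whereas the second (11.9%) set siMt2 replicate 3, the library with the fewest counts, at -23.7 against 8.53 and 16.7 for the other 2. The targeted transcript, Mt2a in the rat, stood at 90.7, 170 and 93.3 CPM in siNT and at 70.7, 87.3 and 142 CPM in siMt2 (log2 fold change -0.28, SE 0.42, adjusted p = 0.631). A lower Mt2a level was therefore not detectable in the libraries labelled siMt2, and every direction below is between labels. Of 9 heart muscle markers, 8 were too low to test, from 51 counts of Pln and 24 of Ryr2 down to 2 of Nppb over all 6 libraries (9 of Myh6, 4 of Actc1, 3 of Tnni3), whereas Tnnt2 stood at 27.2 ± 1.38 CPM in siNT and 54.5 ± 5.19 CPM in siMt2 (SD, n = 3).

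Within the aldose reductase type, Akr1b8 was higher in the libraries labelled siMt2 and Akr1b1 was lower. Aldh7a1, Aldh1l2 and Cbr4 were also higher there, and Aldh3a2, Aldh9a1 and Aldh2 were lower. A gene was tested when it reached a count of about 10, or 2.04 CPM at the median depth, in at least as many libraries as a group holds. By this filter 21 members were tested and 13 were not. Of the 21, 9 were higher, 4 were lower and 8 did not pass an edgeR adjusted p of 0.05. Over all 11726 genes tested, 50.9% passed, 25.8% higher and 25.1% lower, so the share of members that passed is read against a background in which about every other gene passed. The 3 libraries of one label lay wholly on one side of the other for 12 members, 8 above and 4 below, against 57.6% of all genes tested.

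By family, 4 of 8 tested Akr rows rose and 1 fell, 4 of 11 Aldh rows rose and 3 fell, and 1 of 2 Cbr rows rose. The median log2 fold change of the 21 members was 0.22, beside 0.00049 for all genes tested. Akr1c14, Akr1c19, Aldh1l1 and Aldh3b1 reached the cutoff in all 3 libraries of siMt2 only, so the filter favoured a higher level there. In siNT, 2 libraries reached it for Akr1c19 and for Aldh1l1, 1 for Aldh3b1 and 0 for Akr1c14. Of the other 17, which reached it in all 6 libraries, 5 were higher, 4 were lower and 8 did not pass, with a median of 0.06. In the same class of genes the whole table had 2771 higher and 2830 lower of 10751.

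**Figure D1:**
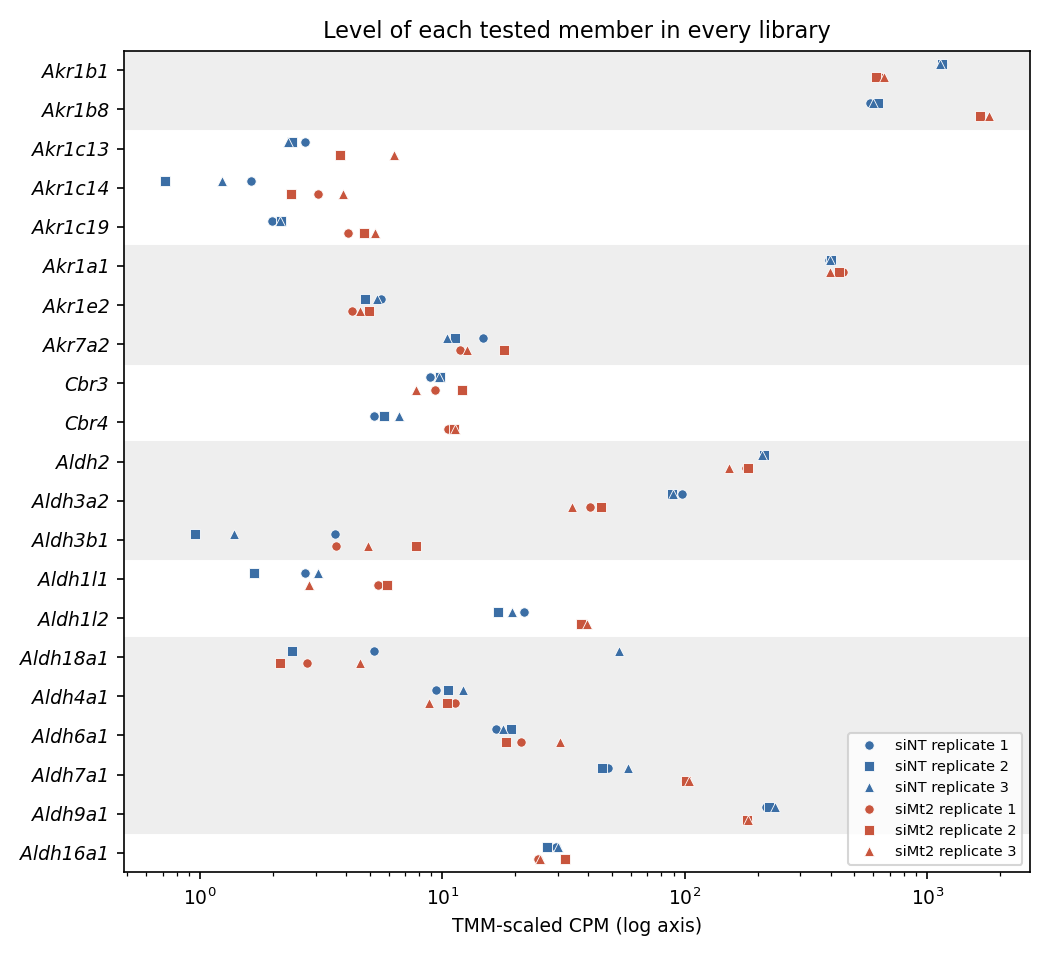
Level of the 21 tested members in each library, as TMM-scaled CPM on a log axis, with siNT in blue, siMt2 in red and the replicate given by the marker; shaded bands group members by substrate. The libraries of the 2 labels stand apart for 12 members, the Akr1b rows and Aldh3a2 among them, and Aldh18a1 shows 1 siNT library at 53.5 CPM far from the other 2.

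Akr1b1 is aldose reductase, the first enzyme of the polyol pathway, which reduces glucose to sorbitol. Akr1b8 is an aldose reductase-like enzyme that prefers lipid-derived aldehydes to glucose. In the rat RefSeq annotation (GRCr8) both lie on chromosome 4, in the order Akr1b1, Akr1b8, Akr1b10 and Akr1b7, and genes between them were not looked for. Akr1b8 had the smallest adjusted p of all members, and the 250 bases before its transcription start are shown because the 2 genes changed in opposite directions. No promoter sequence was at hand for Akr1b1. The sequence is from RefSeq GRCr8, chr4:63964171-63964420, plus strand, and capitals mark a GC box (GGGCGG).

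Akr1b8: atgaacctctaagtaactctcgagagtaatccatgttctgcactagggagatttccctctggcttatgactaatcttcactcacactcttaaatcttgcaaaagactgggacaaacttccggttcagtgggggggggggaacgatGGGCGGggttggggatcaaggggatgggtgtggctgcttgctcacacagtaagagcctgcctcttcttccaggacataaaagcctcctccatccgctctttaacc

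Akr1b8 stood at 582, 629 and 596 CPM in siNT and at 1671, 1649.6 and 1791 CPM in siMt2. Every siMt2 library was far above every siNT library, and the replicates of each label lay close together. Mean levels of 602 ± 24.1 and 1704 ± 76.2 CPM (mean ± SD, n = 3 libraries here and below) differed 2.83-fold, with a log2 fold change of 1.50 (SE 0.04, adjusted p = 4.12e-16). By log2 fold change it ranked 292nd from the top of the 11726 genes tested.

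Akr1b1 went the other way, with 1157, 1153 and 1132 CPM in siNT and 638, 613 and 662 CPM in siMt2. Its groups did not overlap either. The mean fell from 1147 ± 13.5 to 638 ± 24.4 CPM, a log2 fold change of -0.85 (SE 0.04, adjusted p = 6.30e-13), ranking 520th from the bottom of all genes. The ratio of Akr1b8 to Akr1b1 counts was 0.503, 0.545 and 0.526 in siNT and 2.62, 2.69 and 2.71 in siMt2. Because this ratio is not scaled by gene length, only its shift between libraries can be read, and that shift was larger than the spread within either label.

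Summed, Akr1b1 and Akr1b8 went from 1749 ± 28.8 to 2342 ± 99.0 CPM, since the gain in Akr1b8 exceeded the loss in Akr1b1. The pair took 59.6% to 62.1% of all counts of the 34 members in siNT and 67.0% to 70.1% in siMt2. All members together made up 0.283% to 0.288% of the library in siNT and 0.338% to 0.347% in siMt2. These sums describe the libraries and were not tested. RefSeq lists 5 pseudogenes named after each of the 2 genes, and the sources used here do not say how reads that match several copies were counted.

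**Figure D2:**
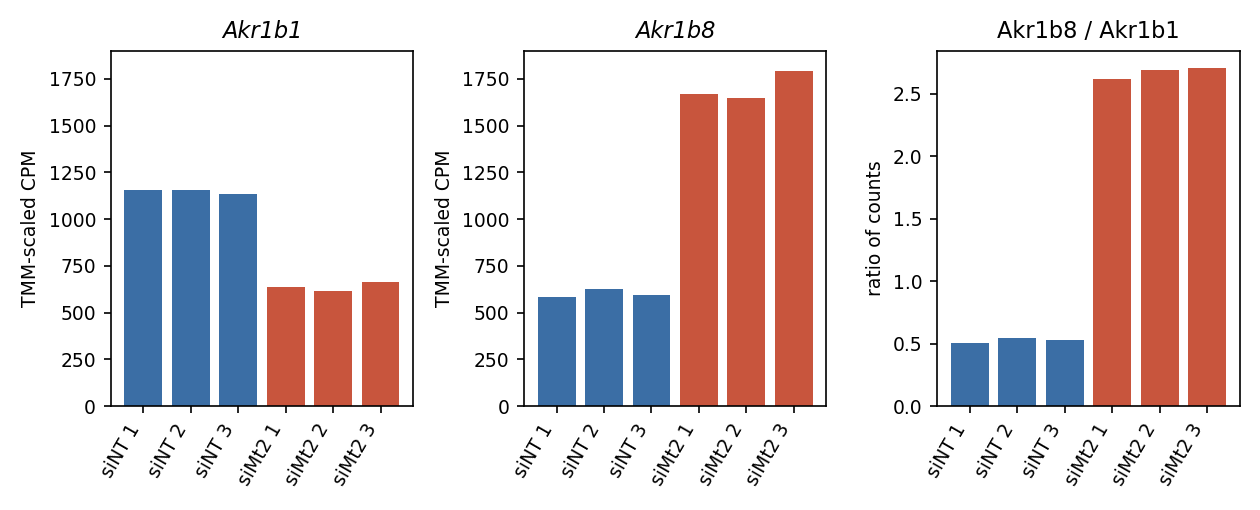
Akr1b1 and Akr1b8 as TMM-scaled CPM, and the ratio of their counts, in each library (siNT blue, siMt2 red; 1 bar per library, axes from 0). The ratio, which is not scaled by gene length, lies at 0.503 to 0.545 in the siNT libraries and at 2.62 to 2.71 in the siMt2 libraries.

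The remaining Akr1b rows were near the counting limit and were not tested. Akr1b10, another aldose reductase-like enzyme, had counts of 5, 2 and 2 in siNT and of 21, 4 and 4 in siMt2. With the filter removed it was called higher (log2 fold change 1.74, adjusted p = 0.0309), and most of its siMt2 counts came from replicate 1. The siMt2 values of Akr1b10 varied by 51.1% beyond counting error. By edgeR without the filter the adjusted p of Akr1b1 was 1.12e-98 and that of Akr1c19 0.0197, against 6.30e-13 and 0.00891 with it. Calls from the fit without the filter are therefore not on the scale of the others. Akr1b7, known from the adrenal gland and vas deferens, had 7 counts in all.

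The Akr1c rows are hydroxysteroid dehydrogenases, which interconvert ketone and hydroxyl groups on steroids and prostaglandins and form 1 cluster in the annotation. Of 6 such rows 3 were tested, Akr1c13, Akr1c14 and Akr1c19, each at a few CPM. Akr1c14 and Akr1c19 reached the cutoff in all libraries of siMt2 only, so that the filter favoured a higher level there and the number that rose is not read as a pattern of the cluster. Akr1c19 was the steadiest, with 1.99, 2.15 and 2.15 CPM in siNT and 4.09, 4.73 and 5.28 CPM in siMt2. Its means of 2.09 ± 0.0933 and 4.70 ± 0.598 CPM gave a log2 fold change of 1.13 (SE 0.34, adjusted p = 0.00891), and the call was kept under each of the 14 alternatives tried.

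Akr1c14, the rat 3-alpha-hydroxysteroid dehydrogenase, stood at 1.63, 0.717 and 1.23 CPM in siNT and at 3.07, 2.36 and 3.87 CPM in siMt2. The groups did not overlap, but the siNT counts were 9, 3 and 8. Its log2 fold change was 1.29 (SE 0.44, adjusted p = 0.0181), and the call was lost without siNT replicate 2 (0.0734), siNT replicate 3 (0.062), siMt2 replicate 1 (0.0632) or siMt2 replicate 3 (0.0604), and with DESeq2 (0.0651). Akr1c13 had 2.71, 2.39 and 2.299 CPM in siNT and 3.80, 3.78 and 6.34 CPM in siMt2, a log2 fold change of 0.84 (SE 0.35). Its adjusted p of 0.0499 lay at the threshold and was above it in 11 of 13 alternatives, up to 0.211 without siMt2 replicate 3.

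The other Akr1c rows had 7 counts (Akr1c12), 11 counts (Akr1c3) and 43 counts (Akr1cl) over the 6 libraries. Akr1c3 had 1 count in siNT and 10 in siMt2, and without the filter its adjusted p was 0.0543. Akr1cl, which RefSeq lists as Akr1c15, scattered, with counts of 14, 1 and 15 in siNT and of 4, 7 and 2 in siMt2. Sequences of this cluster are alike, so reads may have been split between its genes. RefSeq also places Akr1c1, Akr1c2 and Akr1c12l1 in the cluster, and no member row was matched to them. Where their reads were counted is not known.

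The general aldehyde reductases did not pass the test. Akr1a1, which reduces many aldehydes including glucuronate, stood at 395, 400.3 and 398 CPM in siNT and at 450.2, 431 and 397 CPM in siMt2. Its siMt2 replicate 3 lay within the siNT values and the other 2 above them. The log2 fold change was 0.10 (SE 0.05, adjusted p = 0.0785), and it was called higher under upper quartile scaling (0.14, adjusted p = 0.0185) and without siMt2 replicate 3 (0.15, adjusted p = 0.000997). Its 95% interval was 0.0034 to 0.20.

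Akr7a2, known for reducing succinic semialdehyde, stood at 14.6, 11.2 and 10.4 CPM in siNT and at 11.8, 18.0 and 12.7 CPM in siMt2 (log2 fold change 0.22, 95% interval -0.20 to 0.64, adjusted p = 0.390). Akr1e2, which reduces the sugar anhydrofructose, stood at 5.60, 4.78 and 5.36 CPM and at 4.23, 4.97 and 4.58 CPM (-0.21, interval -0.79 to 0.37, adjusted p = 0.554). Both pairs of groups overlapped. Akr7a3, a relative of Akr7a2 known for reducing aflatoxin aldehyde, had 1 count in siNT and 10 in siMt2 and was called only without the filter (adjusted p = 0.0495). Its siMt2 values varied by 59.1% beyond counting error.

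Of the carbonyl reductases, Cbr4 was higher and Cbr3 did not pass. Cbr4, a mitochondrial enzyme of fatty acid synthesis, stood at 5.24, 5.74 and 6.59 CPM in siNT and at 10.5, 11.1 and 11.3 CPM in siMt2, with no overlap. Its means of 5.85 ± 0.684 and 11.0 ± 0.4004 CPM gave a log2 fold change of 0.89 (SE 0.22, adjusted p = 0.00219). In the annotation Cbr4 overlaps Palld, and as no source used here says whether counting used strand, reads of the overlap cannot be assigned. Palld has no row under this name in the counts, so its own level could not be set beside that of Cbr4. Cbr3 stood at 8.85, 9.80 and 9.66 CPM and at 9.34, 12.1 and 7.75 CPM (0.06, interval -0.38 to 0.50, adjusted p = 0.839). Cbr1, the main cytosolic carbonyl reductase of many tissues, had 5 counts in all.

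Among the dehydrogenases of acetaldehyde and lipid aldehydes, Aldh3a2 and Aldh2 were lower and Aldh3b1 was higher. Aldh3a2 is the fatty aldehyde dehydrogenase of the endoplasmic reticulum, which handles long-chain aldehydes, including the one released when sphingolipids are broken down. It had the deepest fall of the members that passed, and the 250 bases before its start are shown beside those of Aldh7a1, the Aldh row with the smallest adjusted p among those that rose. Both are from RefSeq GRCr8, chr10:46448336-46448585 and chr18:52240294-52240543, minus strand, printed 5′ to 3′ in the direction of the gene. Capitals mark CCAAT boxes and GC boxes (GGGCGG, or CCGCCC on the other strand).

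Aldh3a2: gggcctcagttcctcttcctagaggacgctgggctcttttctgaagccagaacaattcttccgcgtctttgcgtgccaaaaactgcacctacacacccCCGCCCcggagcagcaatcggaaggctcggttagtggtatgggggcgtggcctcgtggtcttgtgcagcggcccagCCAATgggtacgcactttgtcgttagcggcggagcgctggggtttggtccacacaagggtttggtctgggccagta
Aldh7a1: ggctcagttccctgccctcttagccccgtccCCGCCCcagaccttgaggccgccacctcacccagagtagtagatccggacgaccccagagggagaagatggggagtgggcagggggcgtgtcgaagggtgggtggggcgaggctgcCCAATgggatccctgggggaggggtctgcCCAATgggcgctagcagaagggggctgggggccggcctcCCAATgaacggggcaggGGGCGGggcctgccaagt

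Aldh3a2 stood at 97.5, 88.7 and 89.7 CPM in siNT and at 40.7, 44.9 and 34.2 CPM in siMt2. The highest siMt2 value was far below the lowest siNT value. Between means of 92.0 ± 4.86 and 39.9 ± 5.43 CPM the log2 fold change was -1.19 (SE 0.10, adjusted p = 2.56e-09), which ranked 185th from the bottom of all genes.

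Aldh2, the mitochondrial enzyme that oxidises acetaldehyde and 4-hydroxynonenal, stood at 212, 212 and 209 CPM in siNT and at 178, 182 and 153 CPM in siMt2. The groups did not overlap, with siMt2 replicate 3 the lowest. The change was small, from 211 ± 1.58 to 171 ± 15.7 CPM (log2 fold change -0.29, SE 0.06, adjusted p = 0.000405).

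Aldh3b1, which oxidises lipid aldehydes at membranes, stood at 3.61, 0.956 and 1.38 CPM in siNT and at 3.65, 7.80 and 4.93 CPM in siMt2. The highest siNT and the lowest siMt2 value all but met, and the replicates varied by 65.2% (siNT) and 32.5% (siMt2) beyond counting error. Its log2 fold change was 1.39 (SE 0.43, adjusted p = 0.0115). The call was lost without siNT replicate 2 (adjusted p = 0.0631), siNT replicate 3 (0.0766) or siMt2 replicate 2 (0.101), and without siNT replicate 1 the log2 fold change was 2.12. In the annotation Aldh3b1 overlaps Unc93b1, which did not pass (log2 fold change 0.06, adjusted p = 0.816). Aldh3a1, known from cornea and stomach, had 3 counts.

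The folate enzymes Aldh1l1 and Aldh1l2 oxidise 10-formyltetrahydrofolate to carbon dioxide and tetrahydrofolate in the cytosol and in mitochondria. The mitochondrial Aldh1l2 stood at 21.7, 17.0 and 19.3 CPM in siNT and at 37.5, 37.4 and 39.4 CPM in siMt2, with no overlap. The means, 19.3 ± 2.35 and 38.1 ± 1.16 CPM, gave a log2 fold change of 0.97 (SE 0.12, adjusted p = 1.74e-06).

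The cytosolic Aldh1l1 was near the cutoff, with 2.71, 1.67 and 3.07 CPM in siNT and 5.40, 5.91 and 2.82 CPM in siMt2. Its siMt2 replicate 3 lay among the siNT values. The log2 fold change was 0.94 (SE 0.35, adjusted p = 0.0331), and the call was lost in 7 of 13 alternatives, with adjusted p up to 0.140. Those were the replicate block, DESeq2, thinning to equal depth, and leaving out siNT replicate 1 (0.072), siNT replicate 2 (0.129), siMt2 replicate 1 (0.140) or siMt2 replicate 2 (0.138).

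Of 6 enzymes of amino acid, GABA and carnitine pathways, 5 were tested, of which 1 was higher and 1 lower. Aldh7a1, also called antiquitin, oxidises an intermediate of lysine breakdown and betaine aldehyde. It stood at 48.4, 45.4 and 58.1 CPM in siNT and at 100, 101 and 104 CPM in siMt2. The 2.01-fold rise, between means of 50.6 ± 6.63 and 102 ± 2.22 CPM, had a log2 fold change of 0.99 (SE 0.09, adjusted p = 1.38e-08). The lowest siMt2 value was far above the highest siNT value.

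Aldh9a1, which makes the carnitine precursor gamma-butyrobetaine, stood at 217, 223 and 234 CPM in siNT and at 183, 181 and 182 CPM in siMt2. The groups did not overlap, and the siMt2 libraries differed from each other by less than 2 CPM. Its mean was 225 ± 8.90 CPM in siNT and 182 ± 0.941 CPM in siMt2, a log2 fold change of -0.31 (SE 0.05, adjusted p = 6.19e-05). RefSeq lists 1 pseudogene named after it. In the annotation Aldh9a1 also overlaps the protein-coding gene Nop10l2, which has no row under this name in the counts. Aldh6a1, Aldh16a1 and Aldh5a1, described below, overlap the protein-coding genes Bbof1, Pih1d1 and Gpld1, none of which was called.

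Aldh18a1, the enzyme that begins proline and ornithine synthesis from glutamate, scattered more than any other tested member. It had 29, 10 and 349 counts in siNT and 19, 9 and 13 in siMt2, or 5.24, 2.39 and 53.5 CPM against 2.77, 2.13 and 4.58 CPM. A single library, siNT replicate 3, held most of its counts, and the siNT replicates varied by 141% beyond counting error. The log2 fold change of -2.85 had a 95% interval of -7.19 to 1.48 (adjusted p = 0.216), and without siNT replicate 3 it was -0.38 (adjusted p = 0.522). Of all genes tested 8.59% scattered by over 30% beyond counting error in a group, and of the tested members Aldh18a1 and Aldh3b1 did so.

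Aldh6a1, which acts in valine and thymine breakdown, stood at 16.6, 19.1 and 17.8 CPM in siNT and at 21.2, 18.2 and 30.6 CPM in siMt2. The groups overlapped, and siMt2 replicate 3 was the highest. It did not pass (log2 fold change 0.35, SE 0.17, adjusted p = 0.0899) except without siMt2 replicate 2 (0.49, adjusted p = 0.0291). Aldh4a1, which oxidises an intermediate of proline breakdown to glutamate, stood at 9.39, 10.5 and 12.1 CPM and at 11.2, 10.4 and 8.80 CPM (-0.05, interval -0.47 to 0.36, adjusted p = 0.848).

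Aldh16a1, a homologue that lacks the catalytic cysteine in mammals, stood at 29.4, 27.0 and 30.04 CPM in siNT and at 24.8, 32.2 and 25.4 CPM in siMt2 (log2 fold change -0.08, interval -0.35 to 0.19, adjusted p = 0.622). Aldh5a1, the succinic semialdehyde dehydrogenase of GABA breakdown, had 18 counts in all and was not tested. None of the retinal-oxidising rows could be tested. Aldh1a1 had 2 counts over the 6 libraries, Aldh1a3 had 13, Aldh1a7 had 9, and Aldh8a1, first described as a retinal dehydrogenase, had 2.

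**Figure D3:**
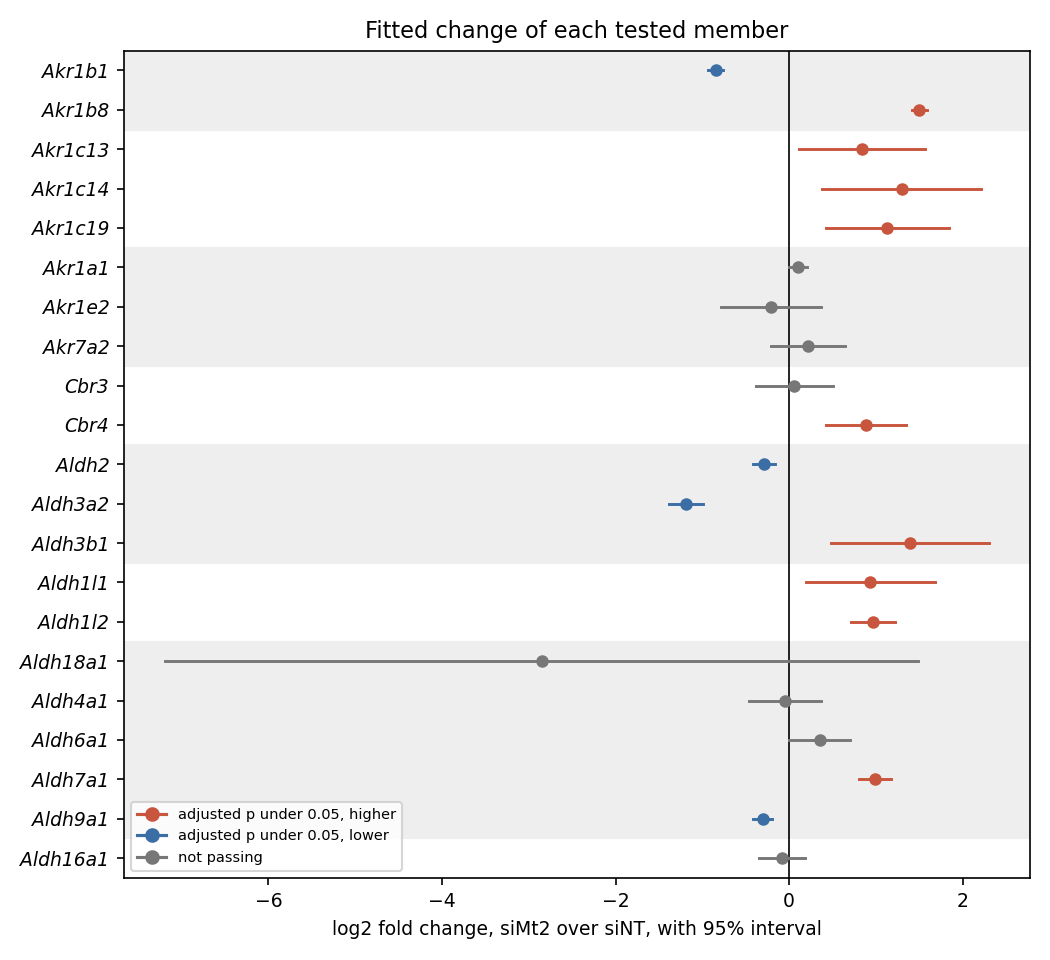
Fitted log2 fold change of siMt2 over siNT for the 21 tested members, with 95% intervals; red and blue points passed an adjusted p of 0.05 (higher and lower) and grey points did not. The 4 lower members are Akr1b1, Aldh2, Aldh3a2 and Aldh9a1, and the widest interval, -7.19 to 1.48, is that of Aldh18a1.

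Summed over each family, the Akr rows went from 2173 ± 28.6 to 2804 ± 78.5 CPM and the Cbr rows from 15.4 ± 1.24 to 20.9 ± 2.28 CPM, while the Aldh rows went from 681 ± 43.0 to 608 ± 16.2 CPM. The sum of the Aldh rows holds the scattering Aldh18a1, whose siNT replicate 3 is the highest of the 6 sums at 730.3 CPM. The lowest siNT sum, 649 CPM, was still above the highest siMt2 sum of 623 CPM. These sums are descriptions without a test.

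The calls of 9 members were kept, with their direction, under all 14 alternatives tried. Higher were Akr1b8, Akr1c19, Aldh1l2, Aldh7a1 and Cbr4, and lower were Akr1b1, Aldh2, Aldh3a2 and Aldh9a1. Of these, Akr1c19 reached the cutoff in all 3 libraries of siMt2 but in only 2 of siNT, so the filter favoured a higher level in siMt2. The other 4 called members, Akr1c13, Akr1c14, Aldh1l1 and Aldh3b1, each had between 62 and 112 counts over the 6 libraries and each lost the call when 1 of several libraries was left out.

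**Figure D4:**
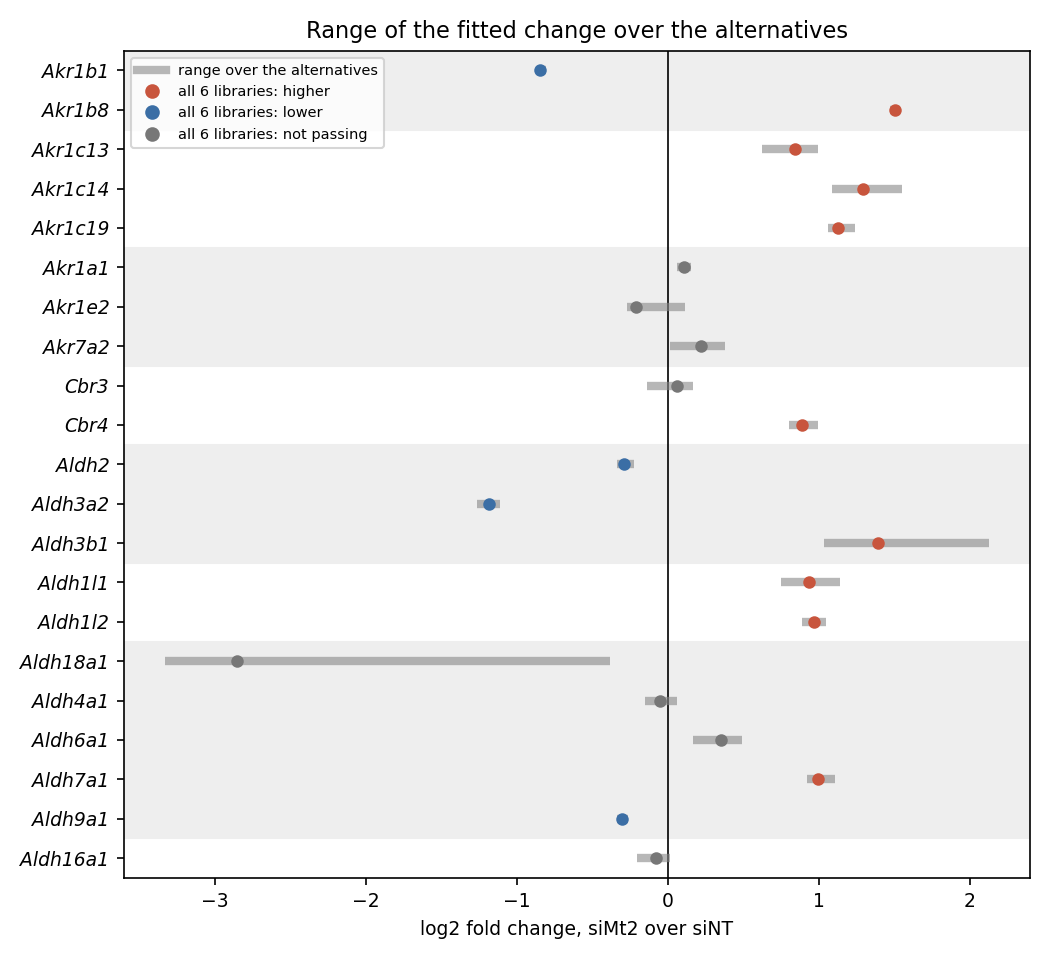
Log2 fold change of each tested member from all 6 libraries (points, coloured by call) and its range over the alternatives (grey bars). Akr1b1, Akr1b8 and Aldh9a1 have ranges narrower than their points, while Aldh18a1 spans -3.33 to -0.38 and Aldh3b1 1.03 to 2.12.

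The promoters of the members were searched for the core of the antioxidant response element, TGACNNNGC, the sequence that NRF2 binds with small MAF proteins. RefSeq gave a window of 250 bases before to 50 after the start for 28 of the 34 members. Of the tested members, Akr1b1, Aldh2, Aldh1l2 and Aldh18a1 had no window and were not searched. On either strand the letters occurred in 3 of these 28, against 12.1% of 33469 RefSeq promoters: in Akr1cl, in Aldh16a1 at 47 bases before the start, and in Aldh9a1 at 27 bases after it (TGACCTCGC). They were not found in the windows of Akr1b8, Aldh7a1 or Aldh3a2, which says nothing of more distant sites. The CCAAT box was found in 14 of 28 members (37.5% of all promoters) and the GC box in 12 of 28 (33.1%), 2 motifs chosen after the sequences had been seen. Aldh7a1 had 3 CCAAT boxes in its 250 bases, and 70% of these bases were G or C, against 60% for Aldh3a2 and 50.8% for Akr1b8. A match of letters is a description, not a binding site.

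Partner genes outside the families were counted the same way, and each count below stands against 25.8% higher and 25.1% lower over all genes tested. Of 25 NRF2 targets tested 17 rose and 5 fell, with a median log2 fold change of 0.48 beside 0.00049 for all genes. The log2 rises were 1.27 for Gstp1, which conjugates electrophiles to glutathione (442 ± 13.9 and 1066 ± 22.6 CPM), 1.07 for Hmox1, which degrades heme, and 1.00 for the quinone reductase gene Nqo1. Among 8 genes of NRF2 control, 3 were higher and 1 lower. The gene of NRF2 itself, Nfe2l2, rose from 214 ± 3.69 to 278 ± 18.4 CPM (log2 fold change 0.37, adjusted p = 9.05e-06), its competitor Bach1 rose by 0.27 and its partner Mafk fell by 0.30.

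Enzymes that share alcohols and sugars with the Akr rows went both ways, 1 higher and 2 lower of 5. Adh7, an alcohol dehydrogenase that also oxidises retinol, rose from 13.0 ± 0.346 to 33.2 ± 0.189 CPM (log2 fold change 1.36, adjusted p = 4.23e-08). Sord, which follows Akr1b1 in the polyol pathway by oxidising sorbitol to fructose, fell slightly, from 239 ± 1.85 to 216 ± 2.83 CPM (-0.15, adjusted p = 0.0154), and Esd, an esterase of the formaldehyde pathway, fell by 0.44 on the log2 scale.

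Of the prostaglandin enzymes 5 of 7 were higher and 1 lower, against 25.8% and 25.1% of all genes. Ptgr1, which reduces prostaglandins and lipid enals, rose from 118 ± 11.9 to 247 ± 11.1 CPM (log2 fold change 1.07, adjusted p = 4.49e-11), the cyclooxygenase gene Ptgs1 rose by 1.27, and the synthase gene Ptges2 fell by 0.68. Of 11 other steroid enzymes 4 rose and 1 fell. Hsd11b1, which regenerates active glucocorticoid, rose by 0.71 and Hsd3b7 of bile acid synthesis by 0.55, and Hsd17b4 of peroxisomal beta-oxidation fell by 0.62.

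Of the folate enzymes around Aldh1l1 and Aldh1l2, 3 of 11 were higher, which is about the 25.8% of all genes, and 5 were lower, against 25.1%. Shmt1, which passes the one-carbon unit of serine to folate, rose from 17.7 ± 2.71 to 33.4 ± 3.70 CPM (log2 fold change 0.92, adjusted p = 1.77e-05). The methionine synthase gene Mtr fell by 0.62 and Mthfs, which returns 5-formyl folate to use, by 0.86.

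Of 5 proline enzymes 2 rose and 0 fell by edgeR. Pycr1, the mitochondrial reductase that makes proline from the product of Aldh18a1, stood at 14.1, 16.5 and 12.3 CPM in siNT and at 69.9, 67.4 and 70.8 CPM in siMt2 (log2 fold change 2.2995, adjusted p = 2.58e-12), and its relative Pycrl rose by 0.50. In the GABA, valine and lysine pathways 3 of 11 rose and 3 fell, among them the methylmalonyl-CoA mutase gene Mut, which fell from 51.2 ± 4.22 to 25.2 ± 1.98 CPM (-1.03, adjusted p = 1.79e-07), and the valine enzymes Hibadh (0.32) and Acad8 (0.59), which rose.

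Of the sphingolipid and carnitine partners of Aldh3a2 and Aldh9a1, 0 of 5 were higher and 2 were lower by edgeR. Sgpl1, the lyase that releases the long-chain aldehyde Aldh3a2 oxidises, fell from 440.0 ± 9.99 to 388 ± 39.3 CPM (log2 fold change -0.19, adjusted p = 0.0104), and the kinase gene Sphk2 fell by 0.38. Of 12 retinoid genes 2 rose and 1 fell. The retinol dehydrogenase gene Dhrs9 rose by 0.51, the receptor gene Rara by 0.33, and Cyp26b1, which breaks down retinoic acid, fell by 1.13 with overlapping, scattering values. Cyp26b1 reached the cutoff in all libraries of siNT only, so the filter favoured a lower level in siMt2.

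**Figure D5:**
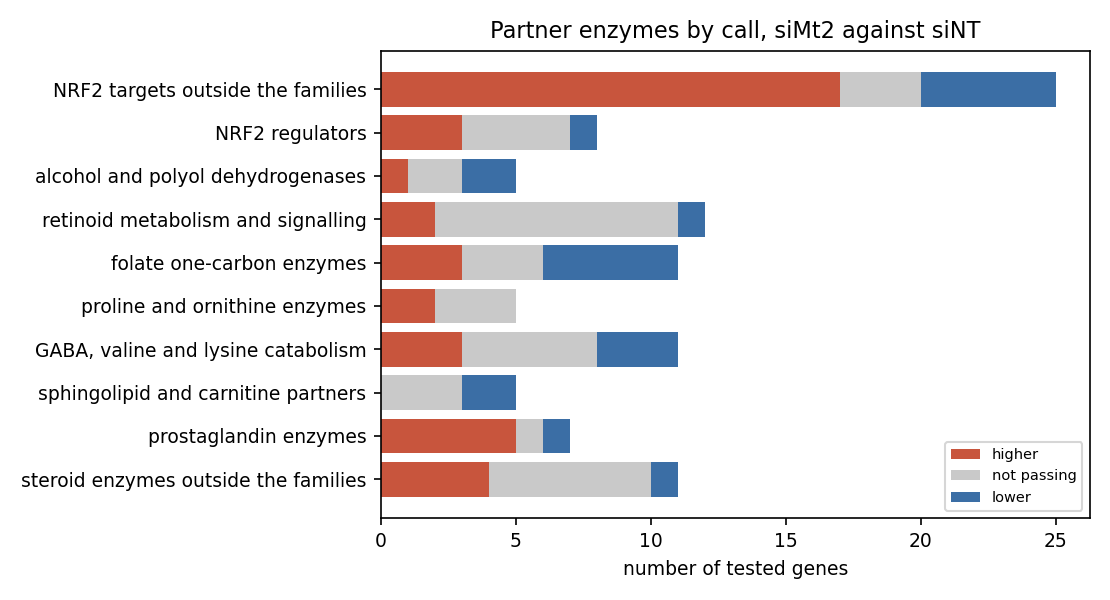
Number of tested genes in each list of partner enzymes that were higher, did not pass or were lower in siMt2 (edgeR adjusted p of 0.05). The NRF2 targets have the longest bar, with 17 higher and 5 lower of 25, and most retinoid genes (9 of 12) did not pass.

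Markers of other cell types moved with the labels. Against 25.8% of all genes higher and 25.1% lower, 5 of 6 smooth muscle markers rose and 0 fell by edgeR, and their summed level was 1855 to 1921 CPM in siNT and 3782 to 3883 CPM in siMt2. Of 7 fibroblast markers 5 rose and 0 fell, with sums of 7444 to 7619 CPM and 9528 to 13519 CPM, while Pdgfra had 2 counts. Lum and Dcn, among those that rose, had 7 and 9 counts in siNT and 44 and 41 in siMt2. They reached the cutoff in siMt2 only, so they could be tested only because they were high there. Col1a1 is the largest part of the sums and of their spread, at 8414, 8946 and 6024 CPM in siMt2 replicates 1, 2 and 3. The sums also hold the scattering Col1a2, at 1151 CPM in siMt2 replicate 2 and at 327 and 238 CPM in siMt2 replicates 1 and 3. Tnnt2, the only cardiomyocyte marker tested, was higher, with sums over the list of 29.3 to 32.2 CPM and 51.3 to 63.7 CPM. Of the leukocyte markers only Cd14 was tested, and it was lower, with sums of 22.7 to 27.3 CPM and 14.2 to 17.3 CPM. These sums are mostly Cd14, as Ptprc had 2 counts, Cd68 17 and Csf1r 31 over all libraries, beside 582 of Cd14. Lipe, the only adipocyte marker tested, was lower too, with sums of 2.53 to 3.59 CPM and 0.438 to 1.89 CPM. It reached the cutoff in siNT only, so it could be tested only because it was high there, and its siMt2 values scattered. The endothelial gene tested did not pass (sums of 5.50 to 7.20 CPM and 3.55 to 8.80 CPM), and 3 hepatocyte markers, of a cell type rich in these enzymes, had 22 counts in all. In bulk RNA fewer cells of a type and less RNA per cell cannot be told apart, and the part of cell type make-up in the levels of the members was not tested.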

How the data were processed

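Per the submitters' processing notes, the tools were featureCounts, HISAT2 2.2.1, Trimmomatic 0.40, DESeq2 and limma on rat build rn6, in no stated order and with no settings. The authors deposited raw whole-number counts per gene, 1 file per library. RNA came from a column kit and libraries from a SMARTer kit, per the labels' protocols. All 18237 rows were used, including 25 rows with names turned into dates (0.26% of counts), which are not named.

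Groups and replicate numbers are those of the titles. The counts were tested by edgeR 4.0.16 under R 4.3.3 (filterByExpr with minimum count 10, TMM scaling, robust quasi-likelihood test, two-sided, Benjamini-Hochberg adjustment over the 11726 genes tested, threshold 0.05). CPM are TMM-scaled, and log2 fold changes are siMt2 over siNT. A row scatters where its coefficient of variation beyond counting error exceeds 0.3 in a group. Members and gene lists were chosen with earlier results of these data known. Every member is accounted for, and partner lists name up to 3 genes with the smallest adjusted p.

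On simulated data with the same 11726 genes, 43.9%, 83.6% and 97% of genes changed by 0.5, 1 and 2 on the log2 scale were recovered, and 5.66% of calls were false. Only a small part of the genes was changed in that simulation, whereas 50.9% of genes passed in the data. Recovery and the share of false calls depend on this part, so these values do not carry over to the comparison itself. For pairs of libraries with one label, the squared difference was 1.58 to 2.25 times what counting error gives (median over genes), so none was taken as a repeat. Alternatives were edgeR with upper quartile scaling or with the size factors of DESeq2, a stricter filter and none, leaving out each library, a replicate block, DESeq2 1.42.0, limma-voom (limma 3.58.1) and, chosen after seeing the data, libraries thinned to equal depth. Names and promoter sequences are from RefSeq GRCr8, not the build of the counts: 32 members matched by symbol, 1 by synonym and 1 not.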

Additional observations from a re-analysis of the deposited data

How the results depend on the processing

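Over the alternatives, 256 values of a member's log2 fold change kept direction and side of the threshold, 26 lost the call, 3 gained it and 6 changed sign. The members higher numbered 9 in all 6 libraries and between 5 (without siNT replicate 2) and 8 (without siMt2 replicate 3) with 1 library left out, and between 6 (DESeq2, thinned libraries) and 10 (upper quartile, no filter) otherwise; the members lower numbered 4 throughout. Akr1c13 and Akr1c14 in thinned libraries and Aldh1l1 under the stricter filter were not tested. The sign changes were all in members that did not pass. With thinned libraries Akr1e2 had a log2 fold change of 0.11 and Cbr3 of -0.14. Leaving out 1 library gave -0.21 to 0.012 for Aldh16a1, -0.15 to 0.056 for Aldh4a1 and -0.11 to 0.16 for Cbr3; the cause was not tested. Samples with the same replicate number did not deviate together (correlations of 0.00185, -0.0545 and 0.0326). No effect shared by number was therefore detectable, which does not show that the samples were unpaired. With the number as a block 7 members were higher and 4 lower, and 2968 and 2929 of all genes. Over all genes the count higher lay between 2502 (DESeq2) and 3314 (upper quartile). The 4 calls that depend on single libraries are of rows with 62 to 112 counts in all, while Akr1c19, with 97 counts, kept its call; the part of depth was not tested.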

Other observations

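The single library that held most of the Aldh18a1 counts led to a count of similar rows, by a rule chosen after its values were seen. A row was counted when 1 library had at least 100 counts and over 5 times the CPM of every other library. There were 11 such rows of 18237: 4 in siNT replicate 1, 0 in siNT replicate 2, 2 in siNT replicate 3, 4 in siMt2 replicate 1, 1 in siMt2 replicate 2 and 0 in siMt2 replicate 3. Besides Aldh18a1 in siNT replicate 3 (349 counts, 10.2 times the next library), they included Gstm3, a glutathione transferase gene, in siNT replicate 1 (100 counts, 12.7 times), the kinase gene Map2k3 in siMt2 replicate 1 (293 counts, 25.4 times), the cap-binding protein gene Ncbp2 in the same library (139 counts, 12.5 times) and the chaperone gene Hsp90aa1 in siMt2 replicate 2 (235 counts, 6.97 times). The other 6 rows carry locus names only.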
